A study of Homo sapiens with 6 samples.

Results

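The sites of open chromatin at 10 genes of the Wnt pathway were examined after depletion of NuMA in HCT116, a long-established line from a human colon carcinoma. NuMA organises spindle poles in mitosis and belongs to the nuclear scaffold between divisions. Open chromatin had been mapped by ATAC-seq, which uses a transposase to cut and tag accessible DNA. There were 3 libraries labelled NuMA depletion, titled AID, and 3 labelled wild type, titled NC. The labels give HCT116 as the line of both groups, explain neither title, and give neither the agent nor the duration of the depletion. They also do not state whether the 3 libraries of a group are separate cultures, so the spread between them may be technical.

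A site is a stretch covered by overlapping peaks of any of the 6 deposited lists, at 1 bp of overlap or more. The members are the sites that touch a gene's extent with 10 kb added on both sides. The 10 windows, 1237 kb in all, held 61 of the 58926 sites of the genome. The genes are CTNNB1, APC, AXIN2, LGR5, ASCL2, TCF7L2, LEF1, NKD1, RNF43 and ZNRF3. Their extents are rounded to 1 kb, and all positions of sites are on hg19. Sites are named by the distance of their centre from the gene's 5' end, with a plus sign in the direction of transcription.

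In the canonical Wnt pathway, β-catenin (CTNNB1) is degraded by a complex built on APC and axins unless a Wnt ligand engages its Frizzled receptor. Stabilised β-catenin enters the nucleus and activates genes through DNA-binding partners of the TCF/LEF family, among them TCF7L2 and LEF1. Some targets, such as AXIN2, NKD1, RNF43 and ZNRF3, in turn restrain the pathway, and LGR5 and ASCL2 mark the stem cells of intestinal crypts. HCT116 cells carry an activating mutation in CTNNB1 and intact APC.

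The libraries differed in depth and in list length. NuMA-depleted replicate 3 had the shortest list, with 21783 peaks, against 32503 to 45892 in the other 5 libraries. It called 22 of the 61 sites, while NuMA-depleted replicates 1 and 2 called 37 and 43, and wild-type replicates 1, 2 and 3 called 34, 39 and 34. Relative depth was recovered from the peak values with a mean of 1 over the libraries. It was 1.07, 1.21 and 1.11 in NuMA-depleted replicates 1, 2 and 3. In wild-type replicates 1, 2 and 3 it was 0.975, 0.869 and 0.762. By this measure the groups did not overlap, and NuMA-depleted replicate 3, with the shortest list, stood above NuMA-depleted replicate 1 and every wild-type library. The cause of its short list was not tested. Every list stops at a −log10 q of about 2, so a site without a peak fell short of that level and need not have been closed. The windows held between 0.0937% and 0.108% of the peaks of each library.

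Of the 61 sites, 19 (31.1%) were called in all 6 libraries, and 28.9% of all sites of the genome were. A further 19 (31.1%) were called in 1 library, against 25.1% in the genome, and 23 in 2 to 5 libraries. No site of the windows was called in all 3 NuMA-depleted and in no wild-type library, a pattern of 0.625% of all sites. The reverse pattern was met by 1 site, in ZNRF3, and by 0.592% of all sites. Only NuMA-depleted replicate 3 lacked a peak at 5 sites (8.20%), against 8.69% in the genome. NuMA-depleted replicates 1 and 2 alone called 3 sites (4.92%), against 3.94%. None of these shares was tested. Without NuMA-depleted replicate 3 these 3 sites count as called in the NuMA-depleted libraries only, and without wild-type replicate 3 the sites called in wild-type libraries only number 3.

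The 19 shared sites were 873 bp wide at the median, against 279 bp for sites called in 1 library, and the median of their highest folds was 8.56, against 4.05. A shared site is the union of peaks from 6 lists and its highest fold the largest of 6 values, so these figures describe the classes and do not compare them. The fold is the linear ratio the deposited lists give for each peak. It matched the summit fragments plus 1 over the local background plus 1, so where background is low it is smaller than the plain ratio. A fold belongs to its own list, and the 6 lists are not known to share a scale. The plot of fold at every site and library gives the whole set.

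**Figure D1:**
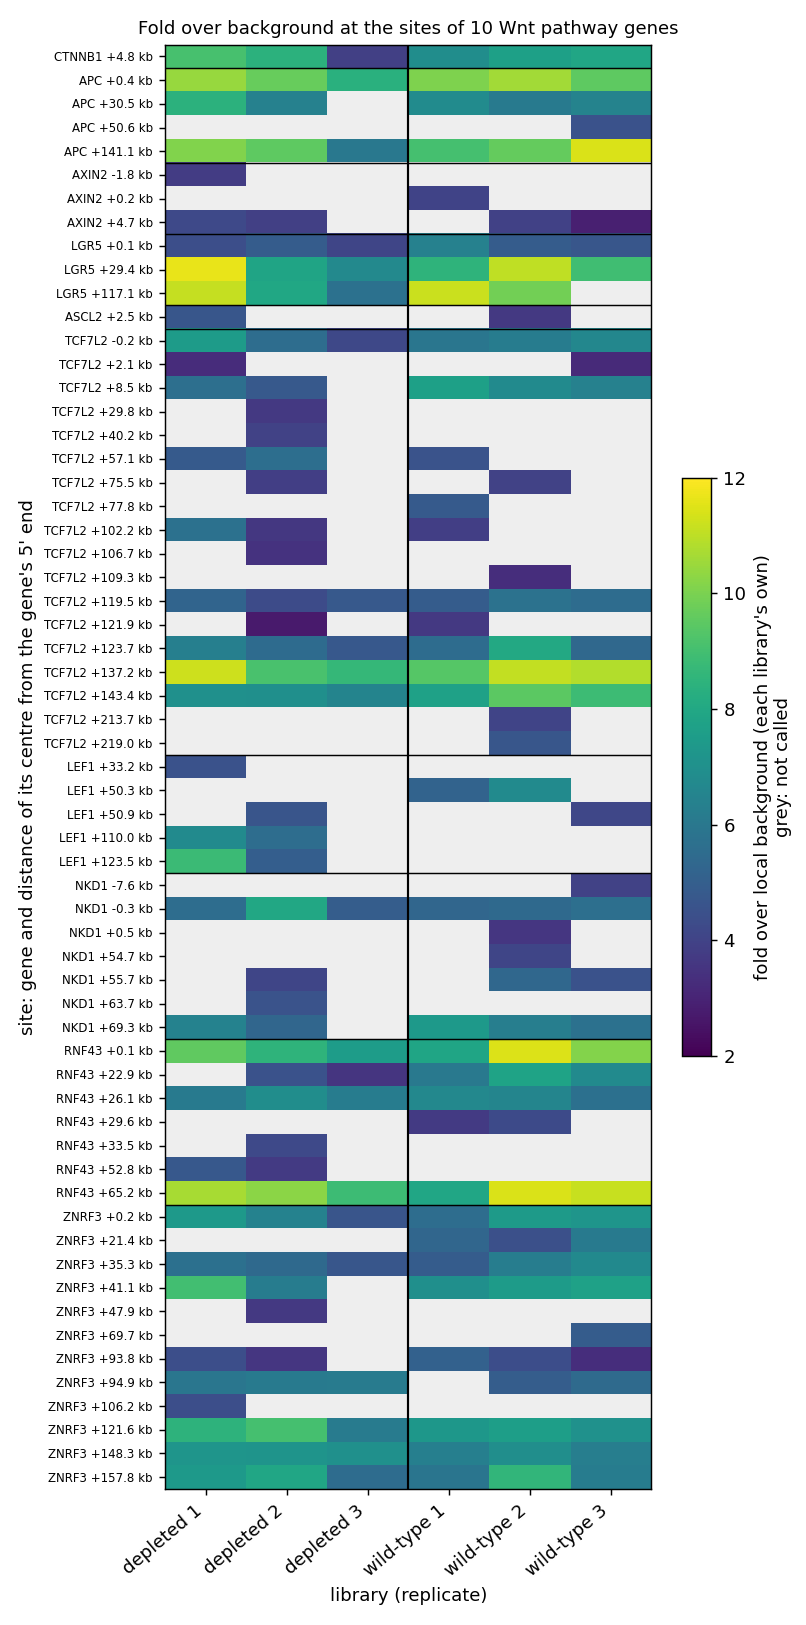
Fold over local background (linear, colour) at each of the 61 sites (rows, grouped by gene, named by distance from the gene's 5' end) in 3 NuMA-depleted and 3 wild-type libraries (columns). Grey marks a site without a called peak. NuMA-depleted replicate 3 has 22 coloured rows, the fewest, and 19 rows are coloured in every library.

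The 5' ends differed from gene to gene. Within 2 kb of the 5' end, 10 sites were found, of which 6 were called in all libraries, in APC, LGR5, TCF7L2, NKD1, RNF43 and ZNRF3. AXIN2 had 2 sites there, each called in 1 library, and TCF7L2 and NKD1 each had another, weaker site. The TCF7L2 one, on chromosome 10 at 114711806 to 114712321, had folds of 3.26 (NuMA-depleted replicate 1) and 3.19 (wild-type replicate 3). The NKD1 one, on chromosome 16 at 50582431 to 50582628, was called in wild-type replicate 2 with a fold of 3.58. CTNNB1, ASCL2 and LEF1 had none within that distance of the listed 5' end. A listed 5' end need not be a gene's only start, so this does not show that their promoters lacked a site. For CTNNB1, the nearest site lay 4.8 kb inside the listed extent and was called in all 6 libraries. For ASCL2 it lay 2.5 kb inside, and for LEF1 33.2 kb inside.

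Promoter sequences were at hand for 5 of the 10 genes, with 9 entries in RefSeq on GRCh38.p14. These genes are CTNNB1, APC, TCF7L2, LEF1 and RNF43. For AXIN2, LGR5, ASCL2, NKD1 and ZNRF3 none was at hand, so their promoters were not searched. The 250 bases before the start are shown for 5 of these entries. CTNNB1 and the first APC start are examples of genes with a site in all libraries. That site lay at the listed 5' end for APC but 4.8 kb inside the listed extent for CTNNB1. The second APC start is shown as an alternative start of the same gene, and RNF43 as a start with few CG. LEF1 is shown as a gene without a site within 2 kb of its listed 5' end, which was also so for CTNNB1. The entries shown are therefore not a contrast of promoters with and without a site. Sequences run 5' to 3', and capitals mark the dinucleotide CG, where human DNA can be methylated. Methylation was not measured here.
CTNNB1, chr3:41199255-41199504, plus strand: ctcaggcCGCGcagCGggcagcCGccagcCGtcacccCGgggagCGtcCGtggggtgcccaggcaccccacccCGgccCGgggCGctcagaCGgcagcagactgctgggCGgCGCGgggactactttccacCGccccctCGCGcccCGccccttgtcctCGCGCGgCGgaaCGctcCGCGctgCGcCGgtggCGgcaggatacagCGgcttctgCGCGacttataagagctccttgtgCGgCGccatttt
APC first start, chr5:112707248-112707497, plus strand: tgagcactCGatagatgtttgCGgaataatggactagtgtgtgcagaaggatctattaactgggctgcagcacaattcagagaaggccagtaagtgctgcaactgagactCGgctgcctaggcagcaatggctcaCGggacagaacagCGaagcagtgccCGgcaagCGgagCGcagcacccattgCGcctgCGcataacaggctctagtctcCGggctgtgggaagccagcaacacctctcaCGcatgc
APC second start, chr5:112737635-112737884, plus strand: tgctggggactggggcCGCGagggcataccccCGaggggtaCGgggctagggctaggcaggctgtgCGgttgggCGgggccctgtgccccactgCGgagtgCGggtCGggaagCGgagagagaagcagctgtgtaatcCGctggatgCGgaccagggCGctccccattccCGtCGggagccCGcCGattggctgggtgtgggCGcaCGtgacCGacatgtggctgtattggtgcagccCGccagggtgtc
LEF1, chr4:108166302-108166551, minus strand: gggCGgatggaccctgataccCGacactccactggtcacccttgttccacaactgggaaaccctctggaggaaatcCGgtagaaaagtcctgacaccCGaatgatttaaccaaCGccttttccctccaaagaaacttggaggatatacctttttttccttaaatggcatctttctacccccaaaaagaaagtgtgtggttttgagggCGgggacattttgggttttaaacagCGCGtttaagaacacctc
RNF43 first start, chr17:58417535-58417784, minus strand: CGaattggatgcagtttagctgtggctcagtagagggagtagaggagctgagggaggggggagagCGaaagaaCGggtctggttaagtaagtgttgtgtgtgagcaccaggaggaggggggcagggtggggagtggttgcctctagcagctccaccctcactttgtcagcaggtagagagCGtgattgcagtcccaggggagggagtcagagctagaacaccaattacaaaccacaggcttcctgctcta
The 5 stretches held 34, 12, 21, 8 and 4 CG, in the order printed, and the median over all 35116 RefSeq entries was 11. The first TCF7L2 start had 21. The letters CTTTGAT, a form of the TCF/LEF motif, were searched on both strands. They occurred in 0 of the 9 entries and in 2.26% of all entries of this length. At that share, 9 entries are too few for a 0 to show that the motif is rare at these genes. As the builds differ, no sequence was matched by position to a peak or to a listed 5' end. The start of an entry may therefore differ from the 5' end used to name the sites.

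β-catenin's gene had a single site in its window, on chromosome 3 at 41240256 to 41241315. Its fold was 9.09, 8.42 and 3.88 in NuMA-depleted replicates 1, 2 and 3, and 6.92, 7.67 and 7.92 in wild-type replicates 1, 2 and 3. The summit held 24, 39 and 10 fragments in the NuMA-depleted and 20, 20 and 21 in the wild-type libraries. NuMA-depleted replicate 3 was the lowest of all and the other NuMA-depleted libraries the highest, so the wild-type values lay inside the NuMA-depleted range. Among all peaks of its list, ranked by p-value, it stood at percentile 65.4, 76.3 and 1.83 in NuMA-depleted replicates 1, 2 and 3, and at 53.4, 50.2 and 60.8 in wild-type replicates 1, 2 and 3.

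APC, the scaffold of the β-catenin destruction complex, had 4 sites. The site at its 5' end, on chromosome 5 at 112042882 to 112043960, had folds of 10.5, 9.67 and 8.35 in NuMA-depleted and 10.1, 10.6 and 9.50 in wild-type libraries. The ranges overlapped. The next site, at 112073237 to 112073771, lay 30.5 kb inside the gene. RefSeq's 2 APC starts are 30.4 kb apart on GRCh38.p14. Its folds were 8.42 and 6.40 in NuMA-depleted replicates 1 and 2, and 6.82, 6.14 and 6.49 in the wild-type libraries, and NuMA-depleted replicate 3 had no peak there. The other site called in all libraries, at 112183837 to 112184400, lay just past the gene's 3' end. It had folds of 10.1, 9.52 and 6.0 in NuMA-depleted and 9.03, 9.65 and 11.4 in wild-type libraries, and NuMA-depleted replicate 3 was the lowest. The fourth site was called once, in wild-type replicate 3, with a fold of 4.53.

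AXIN2, a destruction complex scaffold and a widely used Wnt target, was weakly called throughout. Its broadest site, on chromosome 17 at 63552648 to 63553919, lay 4.7 kb inside the gene. There the fold was 4.20 and 3.89 in NuMA-depleted replicates 1 and 2, and 3.93 and 2.88 in wild-type replicates 2 and 3. NuMA-depleted replicate 3 and wild-type replicate 1 had no peak there. Around the 5' end, NuMA-depleted replicate 1 called a site 1.8 kb upstream, at 63559661 to 63559929, with a fold of 3.77. Wild-type replicate 1 called another, at 63557576 to 63557977, with a fold of 4.00. NuMA-depleted replicate 3 had no peak anywhere in the AXIN2 window.

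TCF7L2, the main TCF/LEF factor of the intestinal epithelium, had the most sites, 18 over 238 kb. Of these, 5 were called in all libraries, the site at the 5' end and 4 sites from 119.5 to 143.4 kb inside the gene. The site 137.2 kb inside, on chromosome 10 at 114846740 to 114847612, was the strongest by q in NuMA-depleted replicates 1 and 3 and in wild-type replicate 1 among all 61 sites. Its fold was 11.2, 9.12 and 8.67 in NuMA-depleted and 9.36, 11.1 and 10.8 in wild-type libraries. The 6 summits lay within 5 bp of each other. The site 143.4 kb inside, at 114852867 to 114853975, had folds of 7.01, 6.97 and 6.51 in NuMA-depleted and 7.73, 9.48 and 8.85 in wild-type libraries. Each listed NuMA-depleted value was below each wild-type value, which was so at 1 of the 19 shared Wnt sites and at 8.40% of all regions called in every library. By percentile the groups overlapped there. At the site 8.5 kb inside the gene, at 114717523 to 114719547, the folds were 5.64 and 4.79 in NuMA-depleted replicates 1 and 2 and 7.69, 6.80 and 6.41 in the wild-type libraries, and NuMA-depleted replicate 3 had no peak. The remaining sites inside the gene and past its 3' end were called in 1 to 3 libraries, and 7 of the 18 were called once.

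LEF1, the TCF/LEF family member best known from lymphocytes, had 5 sites and none in all libraries. A pair of sites near its 3' end was called in NuMA-depleted replicates 1 and 2 and in no other library. The site 110.0 kb inside, on chromosome 4 at 108979748 to 108980254, had folds of 6.79 and 5.58 in these replicates, with summits of 20 and 23 fragments at the same base. The site 123.5 kb from the 5' end, past the gene at 108966074 to 108966943, had folds of 8.83 and 4.98. NuMA-depleted replicate 3 had no peak in the whole LEF1 window, so these sites were not called in every NuMA-depleted library. About 50 kb inside the gene lay 2 sites separated by 78 bp. The nearer to the 5' end was called in wild-type replicates 1 and 2 with folds of 5.19 and 6.79. The other was called in NuMA-depleted replicate 2 with a fold of 4.65 and in wild-type replicate 3 with a fold of 4.14. The map of TCF7L2, ZNRF3, APC and LEF1 shows these positions by library.

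**Figure D2:**
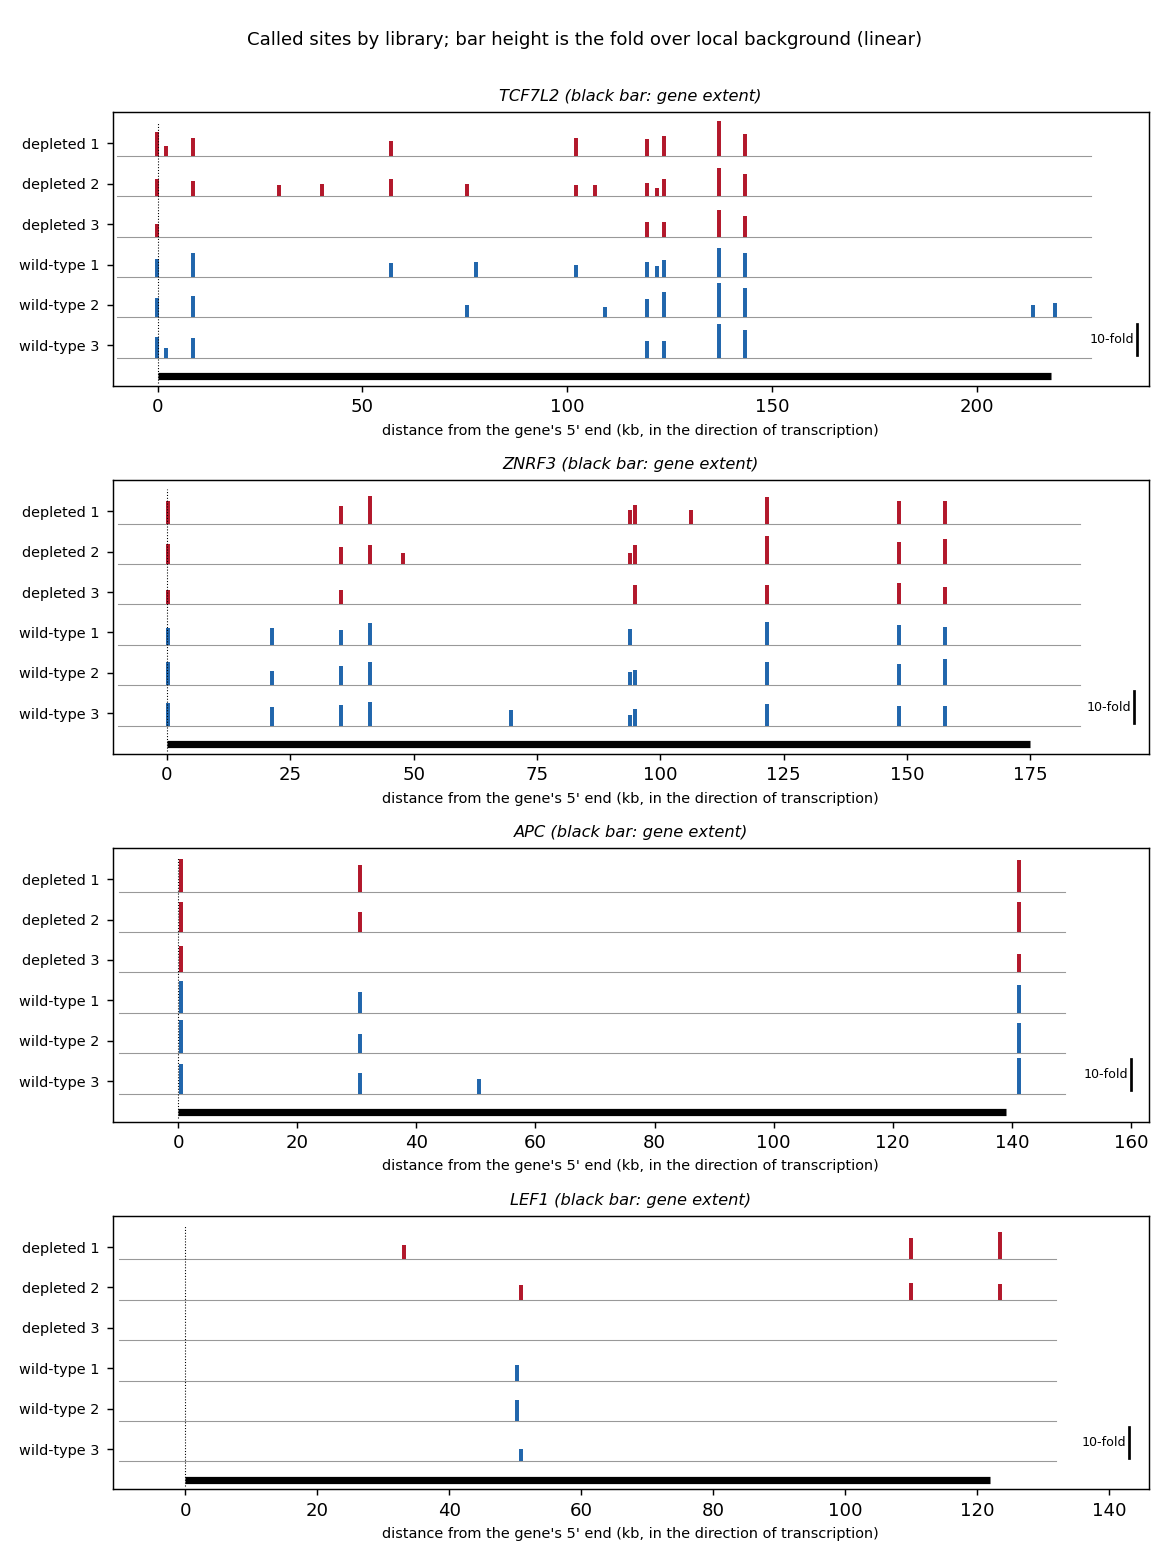
Called sites in the TCF7L2, ZNRF3, APC and LEF1 windows by distance from the gene's 5' end (x axis, kb), with 3 NuMA-depleted libraries above 3 wild-type libraries. Bar height is the fold over local background on a linear scale with a 10-fold rule, and the black bar is the gene extent. The 4 shared TCF7L2 sites from 119.5 to 143.4 kb recur in each track, while LEF1 has no site in NuMA-depleted replicate 3.

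LGR5, the R-spondin receptor of intestinal stem cells, had 3 sites. The site at its 5' end, on chromosome 12 at 71833566 to 71834564, was weak, with folds of 4.38, 4.91 and 4.09 in NuMA-depleted and 6.41, 4.90 and 4.69 in wild-type libraries. Its summits were spread over 605 bp, the widest spread among the 19 shared sites. The site 29.4 kb inside, at 71863100 to 71863748, was stronger, with folds of 11.7, 7.83 and 6.71 in NuMA-depleted and 8.50, 11.1 and 8.95 in wild-type libraries. Another site, 117.1 kb inside at 71950758 to 71951399, was called in every library but wild-type replicate 3. It had folds of 11.1, 7.95 and 5.72 in NuMA-depleted libraries and 11.2 and 9.87 in wild-type replicates 1 and 2. ASCL2, a transcription factor of the same stem cells, had 1 site, on chromosome 11 at 2290309 to 2290651. It was called in NuMA-depleted replicate 1 with a fold of 4.69 and in wild-type replicate 2 with a fold of 3.67.

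NKD1, an antagonist that binds Dishevelled, had 7 sites, of which the one at the 5' end was called in all libraries. On chromosome 16 at 50581341 to 50582147, its fold was 5.59, 7.99 and 4.96 in NuMA-depleted and 5.32, 5.42 and 5.64 in wild-type libraries. NuMA-depleted replicate 2 stood above the rest, and the other 5 libraries lay between 4.96 and 5.64. The site 69.3 kb inside, at 50650753 to 50651765, had folds of 6.43 and 5.30 in NuMA-depleted replicates 1 and 2 and 7.41, 6.26 and 5.74 in wild-type libraries, and NuMA-depleted replicate 3 had no peak. Another 4 of the 7 sites were called in 1 library each.

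RNF43, a membrane E3 ligase that removes Frizzled receptors, had 7 sites, 3 of them in all libraries. The 5' end, on chromosome 17 at 56494525 to 56495231, had folds of 9.54, 8.50 and 7.52 in NuMA-depleted and 7.89, 11.5 and 10.1 in wild-type libraries. The strongest site of the window by q, at 56429308 to 56430294, lay at the gene's far end, where SUPT4H1 is the next protein-coding gene in RefSeq. That site counts here by its window and was not assigned to either gene. Its folds were 10.7, 10.3 and 8.87 in NuMA-depleted and 7.92, 11.4 and 11.2 in wild-type libraries, with overlap. The site 26.1 kb inside, at 56468468 to 56469397, varied little, with folds from 6.11 to 6.89 in NuMA-depleted and from 5.70 to 6.67 in wild-type libraries. The site 22.9 kb inside, at 56471863 to 56472369, had folds of 4.51 and 3.56 in NuMA-depleted replicates 2 and 3 and no peak in NuMA-depleted replicate 1. In wild-type replicates 1, 2 and 3 its folds were 6.06, 7.80 and 6.79. It was picked after its values were seen, as were the sites 8.5 kb inside TCF7L2 and 94.9 kb inside ZNRF3. No genome share was computed for such sites, which lack a peak in a library. Among regions called in all 6 libraries, NuMA-depleted folds were all below wild-type at 8.40% and all above at 1.76%. A site 52.8 kb inside was called in NuMA-depleted replicates 1 and 2 alone, with folds of 4.76 and 3.70. A site 29.6 kb inside, at 56465240 to 56465611, was called in wild-type replicates 1 and 2 alone, with folds of 3.69 and 4.25.

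ZNRF3, the homologue of RNF43 with the same action on Frizzled, had 12 sites, 5 of them in all libraries. The 5' end, on chromosome 22 at 29278781 to 29279625, had folds of 7.39, 6.44 and 4.65 in NuMA-depleted and 5.57, 7.44 and 7.23 in wild-type libraries, with overlap. The site 21.4 kb inside, at 29299965 to 29300774, was the only one of the 61 called in every wild-type and in no NuMA-depleted library. Its folds were 5.30, 4.44 and 6.13, its summits held 14, 14 and 17 fragments, and its −log10 q was 6.26, 4.96 and 8.60 in wild-type replicates 1, 2 and 3. Wild-type replicate 2 fell short of a −log10 q of 5, so a stricter limit at that value leaves 0 such sites. By the weakest q over the libraries that called a site, the strongest lay 41.1 kb inside, at 29319677 to 29320478. Its weakest −log10 q was 14.5, against 13.9 at the site 148.3 kb inside, which all 6 libraries called. The site 41.1 kb inside had folds of 8.97 and 6.18 in NuMA-depleted replicates 1 and 2 and 7.0, 7.50 and 7.72 in wild-type libraries. NuMA-depleted replicate 3 had no peak there. The site 94.9 kb inside, at 29373366 to 29374516, was called in every library but wild-type replicate 1. Its folds were 5.93, 6.07 and 6.17 in NuMA-depleted libraries, against 4.95 and 5.44 in wild-type replicates 2 and 3. A separate site 170 bp away was called in every library but NuMA-depleted replicate 3. Its folds were 4.40 and 3.58 in NuMA-depleted replicates 1 and 2, and 5.10, 4.36 and 3.30 in the wild-type libraries.

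Shared sites were compared between the groups by rank, since the same 17009 regions called in all libraries can be ordered within each library. Each value was the percentile of fold among these regions, tested with limma over all of them. A site that lacked a peak in any library did not enter. The loss or gain of a whole peak could therefore not appear in this test. Without NuMA-depleted replicate 3, which had the shortest list, 22132 regions would enter. None of the 19 Wnt sites was called as changed, and none of the 17009 regions was (0% in each direction, smallest adjusted p = 0.643 by limma with Benjamini-Hochberg adjustment). An unadjusted p under 0.05 was found for 1267 regions and for 0 of the 19 sites. The adjusted p of the 19 ranged from 0.713 to 0.996, and their standard errors from 4.27 to 17.5 percentile points, so changes of that size could not be told from the spread. In simulated data the same fit called few or none of the planted shifts, so the absence of calls does not show that ranks were alike. Of the 19 differences, 8 were positive and 11 negative, with a median of -2.31 points, beside -0.0431 over all regions.

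The 3 NuMA-depleted libraries ranked above the 3 wild-type libraries at 2 of the 19 sites (10.5%), against 6.75% of all regions, and below at 0 sites, against 6.21%. Both sites were in ZNRF3. At the site 148.3 kb inside, on chromosome 22 at 29426545 to 29428091, the percentiles were 31.2, 31.8 and 62.5 in NuMA-depleted and 25.5, 21.1 and 21.3 in wild-type libraries. The difference was 19.2 points (SE 12.6, adjusted p = 0.753 by limma). The listed folds did not overlap either, at 7.22, 7.18 and 7.03 in NuMA-depleted and 6.33, 6.94 and 6.29 in wild-type libraries, as at 1.76% of all regions. At the site 121.6 kb inside, at 29400055 to 29401227, they were 53.7, 67.4 and 43.9 in NuMA-depleted and 42.6, 31.1 and 34.5 in wild-type libraries, a difference of 18.9 points (SE 15.3, adjusted p = 0.804 by limma).

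The most negative difference was at the TCF7L2 site 143.4 kb inside the gene. It stood at percentiles 27.6, 28.1 and 51.8 in NuMA-depleted and 51.5, 62.1 and 69.3 in wild-type libraries. The difference was -25.1 points (SE 15.8, adjusted p = 0.739 by limma), and the groups overlapped by NuMA-depleted replicate 3 and wild-type replicate 1. The lowest p among the 19 was at the NKD1 5' end, with percentiles of 8.91, 47.0 and 17.6 in NuMA-depleted and 10.9, 6.0 and 12.7 in wild-type libraries. There the difference was 14.6 points (SE 8.62, adjusted p = 0.713 by limma). The CTNNB1 site had percentiles of 64.9, 55.5 and 2.57 in NuMA-depleted and 35.6, 32.0 and 51.8 in wild-type libraries. The TCF7L2 site and both ZNRF3 sites were named after their values were seen.

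**Figure D3:**
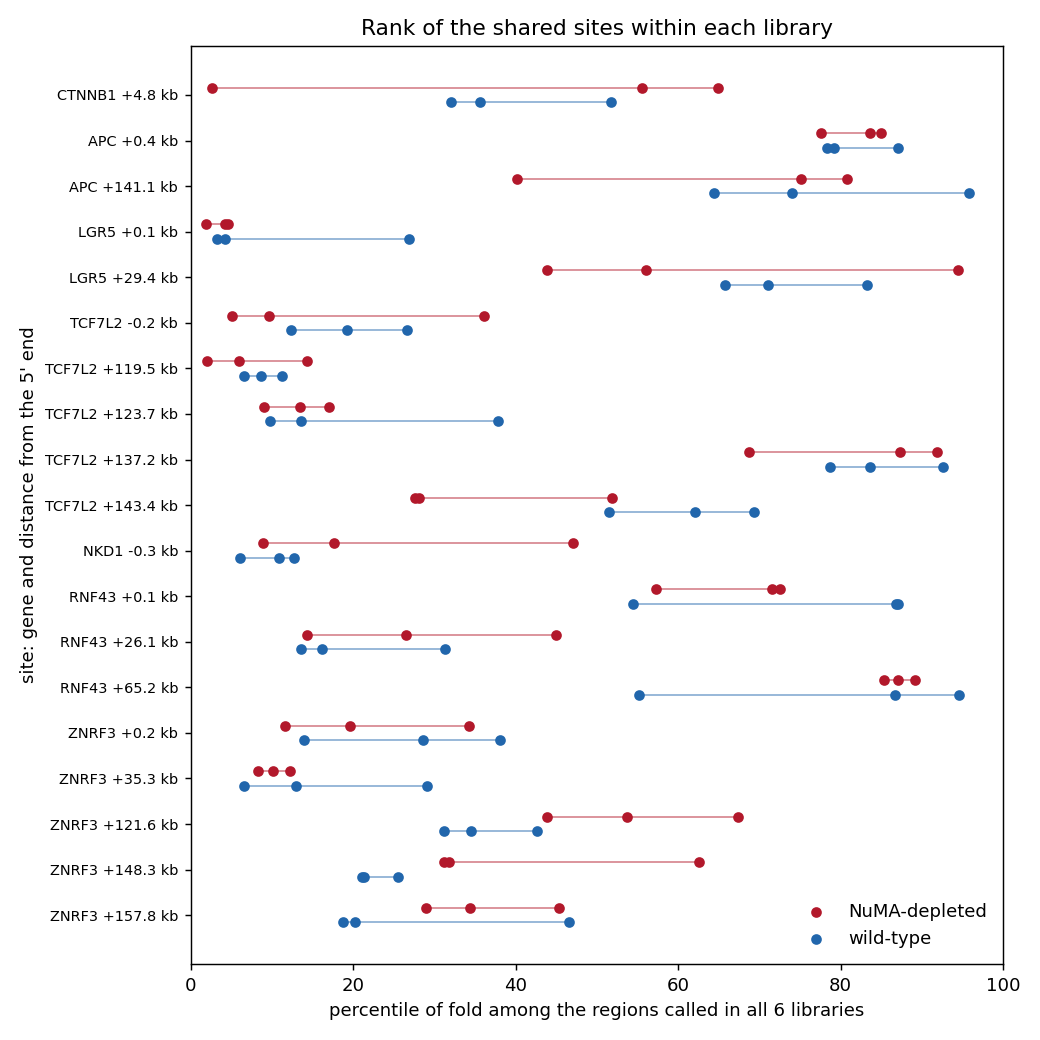
Percentile of fold (x axis) of the 19 shared sites among the 17009 regions called in all 6 libraries, with NuMA-depleted libraries above wild-type libraries in each row; points are libraries and lines join the lowest and highest of a group. The groups do not overlap at the ZNRF3 sites 121.6 and 148.3 kb inside the gene, and the CTNNB1 point at 2.57 is NuMA-depleted replicate 3.

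The number of peaks in the windows overlapped between the groups. All 10 windows together held 37, 43 and 22 peaks in NuMA-depleted and 34, 40 and 35 in wild-type libraries, or 34.0 ± 10.8 and 36.3 ± 3.21 (SD, n = 3 each). The difference of -2.33 peaks was 3.67 without NuMA-depleted replicate 3, -6.83 without NuMA-depleted replicate 2 and -3.83 without NuMA-depleted replicate 1. It was -3.50 without wild-type replicate 1, -0.50 without wild-type replicate 2 and -3.0 without wild-type replicate 3. It was 0.333 with a −log10 q of 5 or more, -0.667 with equal numbers of peaks and -5.0 with a 50 kb flank, so its direction was not stable. By gene, TCF7L2 had 9, 13 and 5 peaks in NuMA-depleted and 10, 11 and 8 in wild-type libraries. ZNRF3 had 9, 9 and 6 in NuMA-depleted and 8, 9 and 10 in wild-type libraries. In both genes NuMA-depleted replicate 3 had the fewest. LEF1 had 3, 3 and 0 in NuMA-depleted and 1 in each wild-type library. CTNNB1 had 1 peak in every library. No gene's counts separated the groups.

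Peak density around the genes was set against the genome in bins of 1 Mb, each gene by the bin of its 5' end, as a share of the library's peaks. Of 2022 bins, 0 were called as changed (0% in each direction, smallest adjusted p = 0.872 by limma), and 114 had an unadjusted p under 0.05. The 10 bins had adjusted p from 0.872 to 0.995, and 1 of them, that of NKD1, had an unadjusted p under 0.05. It held 20, 30 and 9 peaks in NuMA-depleted and 21, 28 and 22 in wild-type libraries, which is -0.33 in log2 share (SE 0.150, adjusted p = 0.872 by limma). Its shares overlapped, at 0.0520%, 0.0654% and 0.0413% in NuMA-depleted and 0.0592%, 0.0724% and 0.0677% in wild-type libraries. With 1 library left out, the difference ran from -0.49 (without NuMA-depleted replicate 2) to -0.18 (without NuMA-depleted replicate 3). With the pseudocount of 0.5 peaks, the shares of all NuMA-depleted libraries lay above those of all wild-type libraries in the CTNNB1 bin, against 6.03% of all bins. Without it they overlapped, at 0.0338%, 0.0349% and 0.0275% in NuMA-depleted and 0.0282%, 0.0284% and 0.0215% in wild-type libraries. The log2 difference was 0.30 (SE 0.191, adjusted p = 0.890 by limma), with 13, 16 and 6 peaks in NuMA-depleted and 10, 11 and 7 in wild-type libraries. In the AXIN2 bin the NuMA-depleted shares lay below, with or without the pseudocount, against 5.14% of all bins, with a log2 difference of -0.17 (SE 0.117, adjusted p = 0.890 by limma). That bin held 24, 30 and 13 peaks in NuMA-depleted and 25, 26 and 24 in wild-type libraries.

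**Figure D4:**
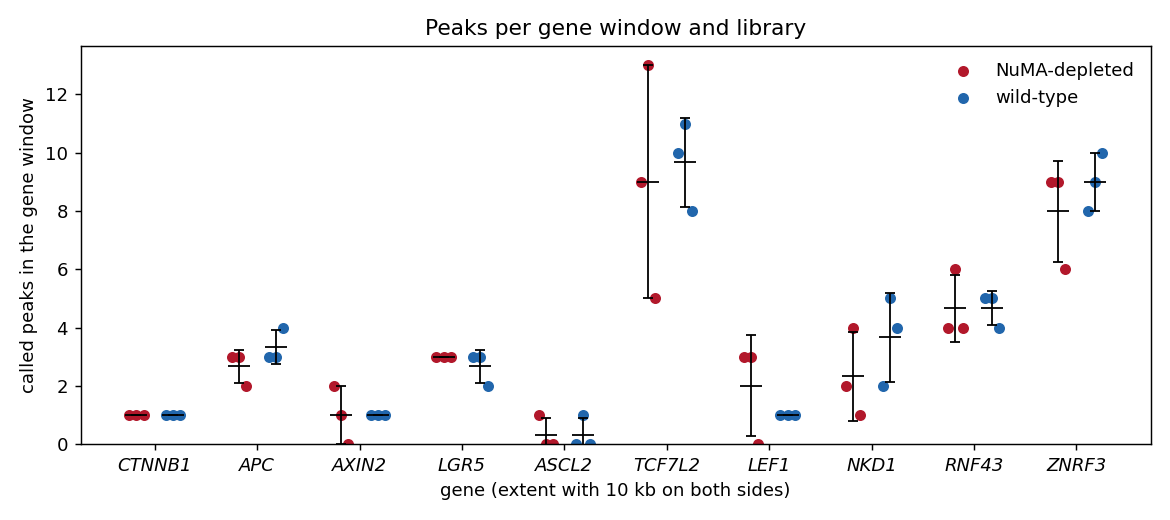
Called peaks (y axis) in each gene window (x axis) by library, with NuMA-depleted left of wild-type for each gene; points are libraries and bars the mean ± SD (n = 3). The groups overlap or touch at every gene, and the spread is widest at TCF7L2, with 5 to 13 peaks in NuMA-depleted and 8 to 11 in wild-type libraries.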

How the data were processed

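ATAC-seq peaks of 6 HCT116 libraries were used, grouped by the genotype label. The submitters' processing notes name hg19, Picard, Trim Galore and Bowtie2 2.4.1. The caller's settings and any shift of reads for the transposase are not stated there. Each sample has its own list. Per peak the deposited lists give a fold (linear ratio) over local background, −log10 p-value and −log10 q-value, and a score that the authors' files hold as 10 times the −log10 q-value.

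Lists were merged at 1 bp. Summit fragments and local background were solved from each deposited fold and p-value with a Poisson tail (tolerance 0.01 on the −log10 p scale; 99.986% to 99.994% of peaks per library). The smallest background divided by the smallest peak width gave relative depth; depth in reads is unknown. The percentile of fold over regions in all libraries entered limma 3.58.1 (R 4.3.3, mean trend, Benjamini-Hochberg over all features, threshold 0.05). So did log2 of the share of peaks per 1 Mb bin (pseudocount 0.5, mean of at least 5 peaks). The fits were checked on simulated data. The bin fit called nearly all planted changes of 4-fold but only a small majority of those of 2-fold, with a few false calls. Many planted 2-fold changes were thus missed. Those counts were Poisson without further spread between libraries, and smaller changes were not planted. This check therefore does not show that the bin fit would find smaller changes in these libraries. The percentile fit called few or none of the planted shifts of 10 and 20 points. Strands of AXIN2, LGR5, ASCL2, NKD1 and ZNRF3 are general knowledge; the others match RefSeq. Counts in windows were not tested, as 3 against 3 cannot give an exact p below 0.10. Other steps used Python 3.11.15, pandas 2.3.3 and scipy 1.17.1.

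Sites named are those within 2 kb of a 5' end and those called in all 3 libraries of 1 group and in none of the other. Also named is the strongest per gene by the weakest q over the libraries that called it. The rest described were chosen after their values were seen. Members and lists were chosen with earlier results of these data known. Without an hg19 annotation, exons and other Wnt genes were not analysed here. Other settings covered a q limit (−log10 q of 5), list length, flanks, summits, presence rules, bins, pseudocounts, ranks, replicate numbers as a block, and each library left out.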

Additional observations from a re-analysis of the deposited data

How the results depend on the processing

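The 61 sites numbered 29 with equal numbers of peaks per library (21783 each) and 93 with a 50 kb flank. Sites called in every library, 19, stayed within 1.5 times under each alternative. Sites called in NuMA-depleted libraries only, 0, numbered 3 when 2 of 3 libraries sufficed, and 0 to 3 with a library left out. With equal numbers and without NuMA-depleted replicate 3 (32503 peaks each, chosen after seeing the data) they numbered 1. Sites called in wild-type libraries only, 1, numbered 0 with a −log10 q of at least 5, 2 with a 50 kb flank, 3 when 2 of 3 libraries sufficed, 0 with equal numbers and without NuMA-depleted replicate 3, and 1 to 3 with a library left out. Regions changed in percentile, 0, numbered 1 with normal scores, and no Wnt site was called under any alternative (lowest adjusted p 0.319 by limma). Ranking by summit fragments, added after seeing the data, also called 0. Of the 19 differences in percentile, 6 kept their sign under every alternative and 13 did not; of the 10 bins, 4 did. The replicate numbers pair nothing in the labels. Deviations of same-numbered libraries correlated at -0.0771 to 0.0923, and those of differently numbered libraries at -0.115 to 0.101. With the replicate block 0 regions and 0 bins were called, as without it. The cause of these shifts was not tested. Depth in reads is unknown, and NuMA-depleted replicate 3, with the shortest list, limits what can be said of sites it lacks.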

Other observations

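The local background recovered at the called peaks ranged from 0.917 to 15.9 fragments in the TCF7L2 window, 4.30 to 8.52 at AXIN2, 0.934 to 3.30 at LEF1 and 1.04 to 2.52 at LGR5. These ranges pool libraries of unequal depth, and that of TCF7L2 covers the others. The smallest background in any list was 0.748 to 1.44 fragments. Peaks with like folds could differ in fragments: the AXIN2 peak of fold 4.00 in wild-type replicate 1 held 25 at its summit, and the LEF1 peak of fold 4.14 in wild-type replicate 3 held 7.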
